A study of Mus musculus with 45 samples.

Results

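The xenobiotic cytochromes P450 described here are 9 genes of families 1 to 3, namely Cyp1a2, Cyp2b10, Cyp2c29, Cyp2c39, Cyp2c70, Cyp2e1, Cyp2f2, Cyp3a11 and Cyp3a13. They were chosen by name, as the genes with a probe set annotated to that single symbol, and each had exactly 1 such probe set. They make up 9 of the 8251 genes tested and 9 of the 10833 probe sets with 1 gene symbol. A further 5 probe sets of these families carried several symbols and were not used here. Many P450 genes have near-identical relatives, and probe sequences were not used here, so a probe set may also read a relative of the gene it is named for.

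RNA was measured on 45 Affymetrix arrays with 1 colour, 16 from liver, 15 from muscle and 14 from epididymal fat. The mice were inbred C57Bl/6 (B6) or inbred 129S6/SvEvTac (129S6) animals, were 6 months old and received either low-fat or high-fat food, with no transgene or drug named in the labels. Each array carried cRNA made from 25 µg of RNA pooled from 2 to 3 mice, and no source used here says whether the pools of a group held separate mice, so p-values reflect only how far pools of a group lie apart, which may be technical in part. Every group of strain and diet had 4 liver arrays. It also had 4 muscle arrays, except for 3 in low-fat B6, and 4 fat arrays if B6 or 3 if 129S6. The study's text gives the calories of a single diet (21% fat, 22% protein, 57% carbohydrates), and no source used here says which of both diets that was. Values are log2 levels, so a difference of 1 is a doubling, and a level is compared only with levels of the same probe set. Differences for diet are high-fat minus low-fat, those for strain are B6 minus 129S6, and both come with their SE and the adjusted p of limma over 8251 genes. With 3 or 4 arrays a group, the number of arrays sets the precision.

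Cytochromes P450 are heme enzymes of the endoplasmic reticulum that insert an oxygen atom into lipophilic molecules, and in the liver those of families 1 to 3 begin the breakdown of most drugs and foreign chemicals. Many of their genes are switched on by ligand-activated receptors. The constitutive androstane receptor CAR (Nr1i3) and the pregnane X receptor PXR (Nr1i2) act on the Cyp2b, Cyp2c and Cyp3a genes, the aryl hydrocarbon receptor on the Cyp1 genes, and the hepatocyte factor HNF4A keeps many of them active in hepatocytes. Several members also handle molecules made by the body, such as bile acids, steroids, retinoids and fatty acids.

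The promoters of 5 members that were called in the liver comparisons below are shown. Cyp3a11, Cyp2c70 and Cyp2b10 fell on the high-fat diet in the liver of both strains, while of the close relatives Cyp2c29 and Cyp2c39 the former fell in B6 liver and the latter differed between the strains. Each run is the 250 bases before the RefSeq transcription start on mouse build GRCm38.p6, read 5′ to 3′ on the strand of the gene. Capitals mark AGGTCA, the core of many nuclear receptor sites, and CAAAGTCCA, a form of the HNF4A site, on either strand.
Cyp3a11: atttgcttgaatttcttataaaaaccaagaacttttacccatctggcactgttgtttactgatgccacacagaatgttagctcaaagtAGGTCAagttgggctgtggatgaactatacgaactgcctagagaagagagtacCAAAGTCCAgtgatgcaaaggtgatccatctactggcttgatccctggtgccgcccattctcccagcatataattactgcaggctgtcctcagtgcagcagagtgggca
Cyp2c70: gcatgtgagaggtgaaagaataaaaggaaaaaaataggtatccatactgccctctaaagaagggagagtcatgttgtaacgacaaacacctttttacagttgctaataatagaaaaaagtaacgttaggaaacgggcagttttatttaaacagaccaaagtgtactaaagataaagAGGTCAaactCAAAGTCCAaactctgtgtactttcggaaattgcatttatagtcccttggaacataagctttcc
Cyp2b10: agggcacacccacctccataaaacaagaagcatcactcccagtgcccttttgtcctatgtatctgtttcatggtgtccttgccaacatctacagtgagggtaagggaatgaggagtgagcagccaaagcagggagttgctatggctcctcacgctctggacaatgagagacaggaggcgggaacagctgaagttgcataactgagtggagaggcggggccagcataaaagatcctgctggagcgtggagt
Cyp2c29: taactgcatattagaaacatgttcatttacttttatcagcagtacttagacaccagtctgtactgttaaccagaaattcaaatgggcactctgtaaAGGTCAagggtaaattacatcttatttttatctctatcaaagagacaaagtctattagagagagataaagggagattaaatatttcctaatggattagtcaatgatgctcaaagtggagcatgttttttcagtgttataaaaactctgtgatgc
Cyp2c39: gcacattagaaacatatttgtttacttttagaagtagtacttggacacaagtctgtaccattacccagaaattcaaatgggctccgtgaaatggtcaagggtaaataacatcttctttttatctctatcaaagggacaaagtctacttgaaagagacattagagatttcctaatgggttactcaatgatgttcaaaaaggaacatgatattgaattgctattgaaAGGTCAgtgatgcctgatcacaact

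These runs lie at chr5:145879855-145880104 on the minus strand for Cyp3a11, chr19:40187287-40187536 on the minus strand for Cyp2c70 and chr7:25897408-25897657 on the plus strand for Cyp2b10. Those of Cyp2c29 and Cyp2c39 lie at chr19:39286835-39287084 and chr19:39347096-39347345, both on the plus strand. All 9 members matched the RefSeq promoter table, Cyp2c39 with 2 starts, so that there were 10 windows, of which the first Cyp2c39 window is shown. AGGTCA was found in 5 of the 10 windows, those of Cyp3a11, Cyp2c70, Cyp2c29, Cyp2f2 and the first of Cyp2c39, against 14% of all 32851 windows of the same length. CAAAGTCCA was found in 2 of the 10, those of Cyp3a11 and Cyp2c70, against 0.384% of all windows. The 2 motifs do not overlap each other. In the Cyp2c70 promoter they begin 74 and 64 bases before the start, and in the Cyp3a11 promoter 162 and 109 bases before it. Neither string of letters occurs in the window of Cyp2b10, Cyp1a2, Cyp2e1 or Cyp3a13. The windows of Cyp2c29 and Cyp2c39 were identical at 195 of 250 aligned bases (78%). A match of letters is a description of the sequence and says nothing of binding in these livers.

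The liver label was checked against hepatocyte markers. The mean level of 8 measured markers, albumin and other plasma proteins among them, was 11.71 to 12.33 over the liver arrays, 5.90 to 6.90 over the muscle arrays and 5.58 to 8.17 over the fat arrays. The Gapdh control signal at the 3′ minus that at the 5′ end, which rises when RNA is broken, was 0.824 to 1.69 in the B6 low-fat livers and 0.225 to 0.346 in the B6 high-fat livers. The SD of an array over its probe sets averaged 1.94 and 1.85 in these groups, and both measures gave an exact two-sided permutation p of 0.0286, the smallest that 4 against 4 allows (0.0762 adjusted over 8 tests). The 4 B6 low-fat arrays also formed a run of consecutive array numbers of their own, so that in B6 liver the diet and the run cannot be told apart. B6 high-fat replicate 13 stood apart with macrophage and muscle fibre markers at means of 8.43 and 6.77, and 129S6 low-fat replicate 11 with a Gapdh difference of 3.26. In whole tissue, fewer cells of a type and less RNA per cell cannot be told apart.

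In the liver of B6 mice, 6 of the 9 members fell on the high-fat diet and none rose. Over all genes tested 18.2% were called in this comparison, 12% lower and 6.21% higher. The falls ran from 1.71-fold for Cyp2b10 to 2.32-fold for Cyp1a2, and the median difference of the 9 members was -0.83 against 0.02 over all genes. Cyp2e1, Cyp2c39 and Cyp3a13 did not pass the test.

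**Figure D1:**
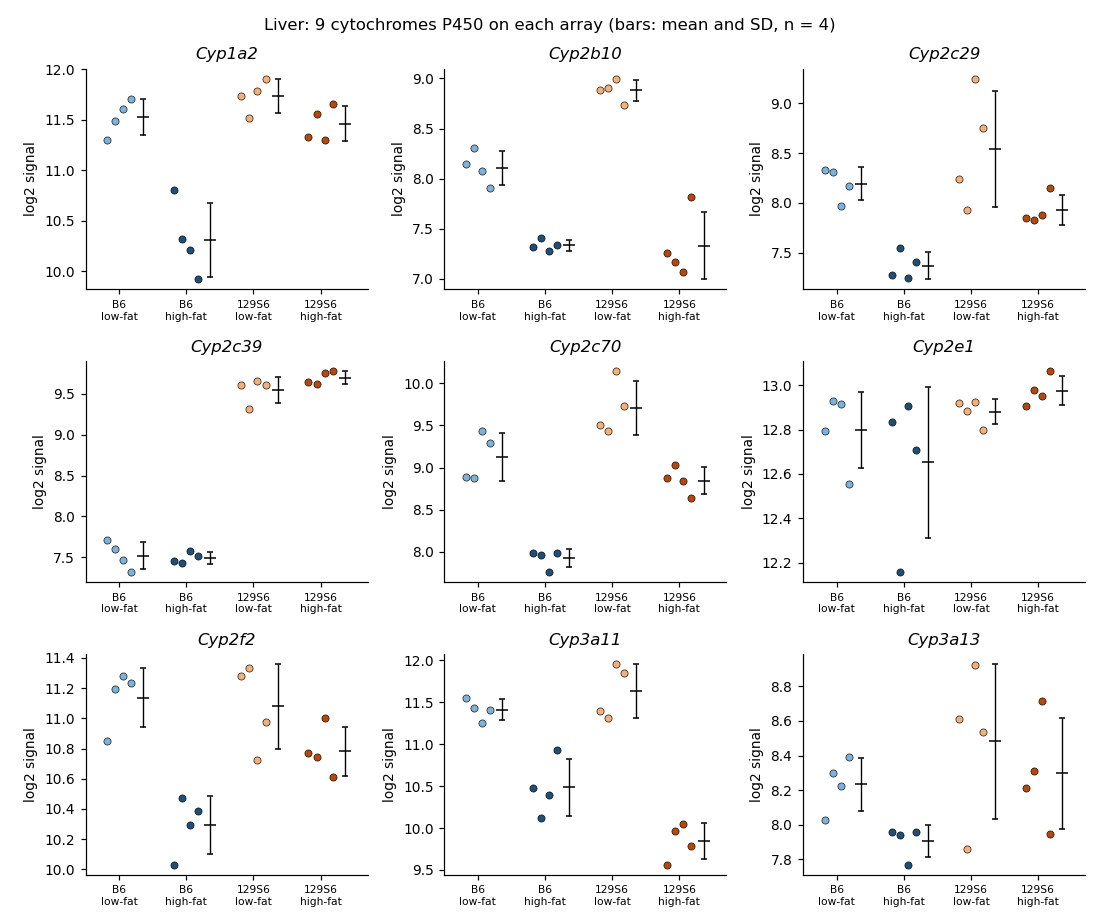
Levels of the 9 members in liver. Each panel plots the log2 level of 1 member by group of strain and diet, with 1 point per array and a bar for the mean ± SD (n = 4 arrays); Cyp3a11 and Cyp2b10 are lower in both high-fat groups, Cyp1a2 is lowest in the B6 high-fat group, and Cyp2c39 is higher in both 129S6 groups.

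Cyp1a2 oxidises aromatic amines and caffeine and is the member governed by the aryl hydrocarbon receptor. Its log2 levels were 11.29, 11.49, 11.61 and 11.70 in the B6 low-fat livers and 10.80, 10.31, 10.21 and 9.92 in the B6 high-fat livers. The groups did not overlap, and the difference was -1.21 ± 0.15 (n = 4 and 4, limma adjusted p = 9.48e-05), the 15th lowest of the 8251 genes.

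Cyp2c70, which makes the muricholic acids that set mouse bile apart, stood at 8.89, 8.87, 9.43 and 9.29 with low-fat food and at 7.99, 7.97, 7.76 and 7.99 with high-fat food in B6. All high-fat livers lay below all low-fat livers. The difference was -1.20 ± 0.15 (limma adjusted p = 0.000102), a 2.29-fold fall.

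Among the classic targets of PXR and CAR, Cyp3a11, the main Cyp3a enzyme of mouse liver, stood at 11.55, 11.43, 11.25 and 11.41 in B6 livers on the low-fat diet. On the high-fat diet it stood at 10.48, 10.12, 10.40 and 10.93, again without overlap. The difference was -0.93 ± 0.17 (limma adjusted p = 0.00141), a 1.90-fold fall.

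Cyp2b10, the enzyme best known for its induction by phenobarbital through CAR, had 8.14, 8.31, 8.07 and 7.90 on the low-fat diet and 7.32, 7.40, 7.27 and 7.34 on the high-fat diet. The 4 high-fat livers had an SD of 0.055 and lay below every low-fat liver. The difference was -0.77 ± 0.13 (limma adjusted p = 0.000859).

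Cyp2c29, an epoxygenase of arachidonic acid, had 8.33, 8.31, 7.97 and 8.17 on the low-fat and 7.28, 7.54, 7.24 and 7.41 on the high-fat diet in B6, a difference of -0.83 ± 0.20 (limma adjusted p = 0.00931). Cyp2f2, which activates naphthalene and in liver is a periportal gene, had 10.85, 11.19, 11.28 and 11.23 against 10.03, 10.47, 10.29 and 10.39, a difference of -0.84 ± 0.14 (limma adjusted p = 0.000745). Neither gene's groups overlapped.

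The other members did not pass in B6. Cyp2e1, the oxidase of ethanol and acetaminophen, ranged from 12.55 to 12.93 on the low-fat diet and from 12.16 to 12.91 on the high-fat diet, and its difference of -0.15 had a 95% interval from -0.42 to 0.13 (limma adjusted p = 0.46). The lowest Cyp2e1 value was that of replicate 14, the liver array with the lowest mean of hepatocyte markers (11.71). Cyp2c39, which hydroxylates retinoic acid, differed by -0.03 with an interval from -0.23 to 0.17 (limma adjusted p = 0.86). Its B6 livers lay inside its muscle range of 6.79 to 8.05, so these levels cannot be told apart from background. Cyp3a13, a Cyp3a form better known from the intestine, ranged from 8.03 to 8.39 and from 7.77 to 7.96, which did not overlap, but its difference of -0.33 had a limma adjusted p of 0.221. It was called in the fit of the 2 groups alone (limma adjusted p = 0.0233).

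All 6 calls in B6 held when each of the 8 arrays was left out in turn. With the SD of each array as a covariate 4 remained, and Cyp3a11 (-0.52, limma adjusted p = 0.0955) and Cyp2c29 (-0.51, limma adjusted p = 0.231) were no longer called. Still called but smaller were Cyp2f2 after quantile normalization within liver (-0.54, limma adjusted p = 0.0372) and Cyp2c29 with the Gapdh difference as a covariate (-0.52, limma adjusted p = 0.018).

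In the liver of 129S6 mice, 3 members fell on the high-fat diet, Cyp3a11, Cyp2b10 and Cyp2c70, and none rose. Over all genes tested only 0.23% were called here, 0.17% lower and 0.0606% higher. Cyp3a11 and Cyp2b10 had the lowest and the second lowest difference of the 8251 genes, where the strain's whole response to diet held 19 called genes. The median difference of the 9 members was -0.30 against 0.01 over all genes.

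Cyp3a11 stood at 11.40, 11.32, 11.96 and 11.85 in 129S6 livers with low-fat food and at 9.56, 9.97, 10.05 and 9.79 with high-fat food. The closest arrays of both groups were thus more than 1 log2 unit apart. The fall was 3.45-fold (-1.79 ± 0.17, limma adjusted p = 3.34e-05).

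Cyp2b10 stood at 8.88, 8.90, 9.00 and 8.74 with low-fat food and at 7.25, 7.17, 7.07 and 7.82 with high-fat food in 129S6. Replicate 10 was the highest of the high-fat livers and still lay below all low-fat livers. The fall was 2.94-fold (-1.55 ± 0.13, limma adjusted p = 1.35e-05).

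Cyp2c70 had 9.50, 9.43, 10.14 and 9.73 on the low-fat diet and 8.87, 9.03, 8.84 and 8.64 on the high-fat diet, without overlap. Its fall was 1.81-fold (-0.86 ± 0.15, limma adjusted p = 0.028). This call was the least steady of the 3. It was kept in 3 of the 8 fits that leave out 1 array, those without low-fat replicate 5, 6 or 11 (limma adjusted p from 0.0188 to 0.1 over the 8), and was lost in the fit of the 2 groups alone (limma adjusted p = 0.183) and with the array run as a block (-0.62, limma adjusted p = 0.272). Without replicate 11, the low-fat array with the high Gapdh difference, all 3 members were still called, Cyp3a11 at -1.68, Cyp2b10 at -1.51 and Cyp2c70 at -0.71 (limma adjusted p = 0.0437).

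The other 6 members were not called in 129S6. Cyp1a2 ranged from 11.51 to 11.91 on the low-fat and from 11.30 to 11.66 on the high-fat diet, and its difference of -0.28 had a 95% interval from -0.60 to 0.05 (limma adjusted p = 0.821). Cyp2c29 differed by -0.62 (limma adjusted p = 0.543), its low-fat arrays spreading from 7.93 to 9.25. Cyp2f2 differed by -0.30, Cyp3a13 by -0.19, Cyp2e1 by 0.09 and Cyp2c39 by 0.15.

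**Figure D2:**
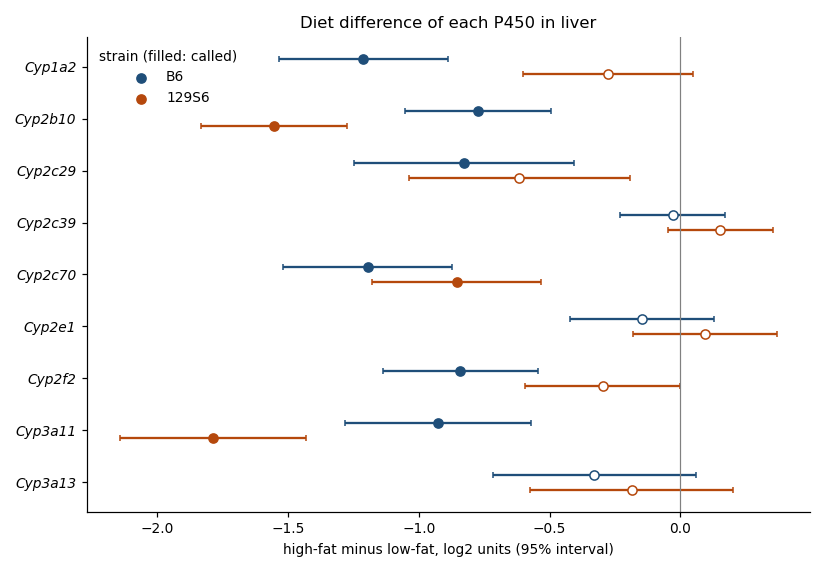
Diet differences of the 9 members in liver. The horizontal axis is high-fat minus low-fat in log2 units, with B6 in blue and 129S6 in orange, lines for the 95% interval and filled points for differences called by limma; Cyp3a11 and Cyp2b10 lie farther left in 129S6 (-1.79 and -1.55) and Cyp1a2 in B6 (-1.21).

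Whether the diet difference itself depended on the strain was tested for each member. A dependence was called for 3 of the 9, against 5.49% of all genes (4.63% lower and 0.861% higher in B6). The B6 diet groups share no array run, so this dependence and the run cannot be told apart. For Cyp1a2 the diet difference was lower in B6 than in 129S6, by -0.94 ± 0.22 (limma adjusted p = 0.0182). For Cyp2b10 and Cyp3a11 it was the reverse, with a diet difference higher in B6 by 0.78 ± 0.19 (limma adjusted p = 0.0209) and by 0.86 ± 0.24 (limma adjusted p = 0.0441), so that these fell more in 129S6. Both high-fat liver means of Cyp2b10 were 7.33, within its muscle range of 6.69 to 7.76. Such levels cannot be told apart from background, and the part of a lower limit of the signal in this difference was not tested. For Cyp2c70 the diet difference had no called dependence on strain (-0.34, 95% interval -0.80 to 0.12, limma adjusted p = 0.391), and for Cyp2f2 and Cyp2c29 the values were -0.55 (limma adjusted p = 0.121) and -0.21 (limma adjusted p = 0.71). With the Gapdh difference as a covariate Cyp2f2 was called too (-0.57, limma adjusted p = 0.0272).

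These 3 calls were less steady than the diet calls. With the SD of each array as a covariate only Cyp3a11 was called (1.29), and Cyp1a2 (-0.66, limma adjusted p = 0.0995) and Cyp2b10 (0.54, limma adjusted p = 0.11) were not. Quantile normalization within liver also took the call of Cyp1a2 (-0.64, limma adjusted p = 0.0932). Over the 16 fits that leave out 1 array, the call held in 16 for Cyp1a2 and in 13 for Cyp2b10, which lost it without B6 low-fat replicate 4 or 129S6 high-fat replicate 8 or 9. For Cyp3a11 it held in 5, those without 129S6 low-fat replicate 5, 6 or 11 or, in B6, high-fat replicate 14 or low-fat replicate 1 (limma adjusted p from 0.0251 to 0.0865 over the 16).

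Between the strains on the low-fat diet, 3 members were lower in B6 than in 129S6, Cyp2c39, Cyp2b10 and Cyp2c70, and none was higher. Over all genes 13.8% were called, 3.83% lower and 10% higher in B6. Cyp2c39 had 7.71, 7.60, 7.46 and 7.32 in B6 and 9.61, 9.31, 9.65 and 9.61 in 129S6. The gap between the groups was far wider than the spread within them, and the level was 4.07-fold lower in B6 (-2.02 ± 0.10, limma adjusted p = 3.61e-10), the 3rd lowest of the 8251 differences. The B6 values lay inside the muscle range of 6.79 to 8.05 and cannot be told apart from background, which leaves the size of this difference uncertain.

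Cyp2b10 was 1.71-fold lower in B6 on the low-fat diet, where its B6 arrays reached at most 8.31 and its 129S6 arrays were at least 8.74 (-0.77, limma adjusted p = 0.000982). With the SD of each array as a covariate this was -0.55 and no longer called (limma adjusted p = 0.074). Cyp2c70 was 1.49-fold lower in B6, with overlapping groups (-0.58, limma adjusted p = 0.0192), and lost its call in the fit of the 2 groups alone (limma adjusted p = 0.0917) and without B6 replicate 1 or 2. The members not called differed by -0.35 for Cyp2c29, -0.25 for Cyp3a13, -0.22 for Cyp3a11, -0.21 for Cyp1a2, -0.08 for Cyp2e1 and 0.06 for Cyp2f2. Each of the first 3 was called in 1 alternative, Cyp2c29 with the Gapdh difference as a covariate (-0.43, limma adjusted p = 0.0294), Cyp3a13 with the SD of each array as a covariate (-0.82, limma adjusted p = 0.015) and Cyp3a11 after quantile normalization within liver (-0.47, limma adjusted p = 0.0442). The sign for Cyp2f2 turned in some alternatives.

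On the high-fat diet 3 members were lower in B6, Cyp2c39, Cyp1a2 and Cyp2c70, and 1 was higher, Cyp3a11. Over all genes 5.16% were called, 2.13% lower and 3.03% higher in B6. In this comparison all B6 livers came from 1 array run and all 129S6 livers from another. Only the 129S6 low-fat arrays, which lie in both runs, set the run apart from the strain in the block fit. The strain and diet comparisons share these livers, so their values are set side by side and not counted as separate support. Cyp2c39 ranged from 7.43 to 7.58 in B6 and from 9.62 to 9.78 in 129S6, 4.62-fold lower in B6 (-2.21 ± 0.10, limma adjusted p = 1.19e-10). These B6 values again lay inside its muscle range.

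Cyp1a2 was 2.22-fold lower in B6 on the high-fat diet (-1.15 ± 0.15, limma adjusted p = 0.000188), the highest B6 array at 10.80 lying below the lowest 129S6 array at 11.30. Cyp2c70 was 1.89-fold lower (-0.92, limma adjusted p = 0.00137), and differed by -1.39 with the array run as a block (limma adjusted p = 0.00255). Cyp3a11 was 1.56-fold higher in B6 (0.64 ± 0.17, limma adjusted p = 0.036), the lowest B6 array at 10.12 lying just above the highest 129S6 array at 10.05. Its call was lost with the array run as a block (0.09, limma adjusted p = 0.851) and without any 1 of 6 of the 8 arrays, B6 replicates 13, 15 and 16 and 129S6 replicates 7, 8 and 10.

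Cyp2b10, which had differed between the strains on the low-fat diet, stood at a mean of 7.33 in both strains on the high-fat diet (difference 0.01, 95% interval -0.27 to 0.29, limma adjusted p = 0.986). Cyp2f2 (-0.49, limma adjusted p = 0.0549) and Cyp2c29 (-0.56, limma adjusted p = 0.127) had groups that did not overlap but did not pass the test. Cyp2f2 was called in 5 of 10 alternatives, among them the fit of the 2 groups alone (limma adjusted p = 0.0166), but differed by -0.03 with the array run as a block (limma adjusted p = 0.938). Cyp2c29 was called in 4 of 10, among them the fit of the 2 groups alone (limma adjusted p = 0.00386) and the array run as a block (-1.47, limma adjusted p = 0.00108). Cyp3a13 and Cyp2e1 differed by -0.39 and -0.32.

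Ordered by mean level, the 129S6 low-fat and then the B6 low-fat group came first for Cyp2b10, Cyp3a11, Cyp2c70, Cyp1a2 and Cyp2c29. Below them B6 came before 129S6 for Cyp2b10 and Cyp3a11, and after it for the other members of the 5. Cyp2b10 was highest in 129S6 on the low-fat diet (8.88 ± 0.11, SD, n = 4), then in B6 on the low-fat diet (8.11 ± 0.17), with both high-fat groups level. Cyp3a11 had both low-fat groups on top (11.63 ± 0.32 in 129S6 and 11.41 ± 0.12 in B6, which overlapped), then B6 on the high-fat diet (10.48 ± 0.34) and 129S6 on the high-fat diet (9.84 ± 0.22). Cyp2c70 was highest in 129S6 on the low-fat diet (9.70 ± 0.32) and lowest in B6 on the high-fat diet (7.93 ± 0.11), with B6 low-fat (9.12 ± 0.28) and 129S6 high-fat (8.85 ± 0.16) overlapping between them. Cyp1a2 had 3 overlapping groups (11.73 ± 0.16, 11.52 ± 0.18 and 11.46 ± 0.17) and the B6 high-fat group below them (10.31 ± 0.37).

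The genes whose pattern over the 16 liver arrays was nearest to a member's were ranked by the root mean square difference of centred log2 levels, for the 6 members whose group means span over 1 log2 unit. For Cyp1a2 these were Apom (0.23), Igfals (0.26) and Agxt (0.30), where the median gene lay at 0.62. For Cyp3a11 the nearest were Cyp2b10 (0.43), Aox1 (0.44) and Keg1 (0.45), against 0.79 for the median gene. For Cyp2b10 they were Mcm10 (0.42), Gstp1 (0.43) and Cyp2c29 (0.43), against 0.69. Cyp2c70 was nearest to Lifr (0.26), Apom (0.31) and Cyp1a2 (0.32), and Cyp2c29 to Ero1b (0.20), Prdx4 (0.24) and Igf1 (0.26). For Cyp2c39 they were Gdpd3 (0.33), Asic5 (0.34) and Apcs (0.46), against 1.07 for the median gene. These distances are a description over shared arrays, and nearness in them was not tested.

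The receptors and factors that control P450 genes were followed through a list of 33 genes, of which 29 were measured. In B6 liver on the high-fat diet 5 rose and 2 fell. The 2 that fell were receptors that act on Cyp2b, Cyp2c and Cyp3a genes, Nr1i3 (CAR) at -1.04 ± 0.16 (limma adjusted p = 0.000431) and Nr1i2 (PXR) at -0.49 (limma adjusted p = 0.0219). Those that rose were Ppara (2.09), Hnf4a (1.39), Rxra (0.68), Nfe2l2 (0.58) and Nr3c1 (0.52), while Ahr, the receptor of Cyp1a2, differed by 0.65 (limma adjusted p = 0.13). Hnf4a ranged from 5.96 to 6.27 in the B6 low-fat and from 7.32 to 7.69 in the B6 high-fat livers. Nr1i2 ranged from 6.29 to 6.58 and from 5.61 to 6.11 there. The medians of the arrays were 6.07 to 6.24, and levels as low as these cannot be told apart from background. A second probe set of Rxra was not called (0.51, limma adjusted p over all probe sets = 0.0922). The median over the list was 0.08 against 0.02 over all genes.

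Nr1i3 stood at 9.18, 9.34, 9.50 and 9.41 in B6 livers with low-fat food and at 8.38, 8.23, 8.33 and 8.35 with high-fat food. In 129S6 it stood at 9.63, 9.28, 8.64 and 9.36 and at 9.09, 9.38, 9.64 and 9.34. The 129S6 groups overlapped (0.13, limma adjusted p = 0.896), and the diet difference was lower in B6 than in 129S6 by -1.17 (limma adjusted p = 0.00621). Its other probe sets differed in B6 by -0.47 (limma adjusted p over all probe sets = 0.0111) and -0.23 (limma adjusted p = 0.127). None of the 29 genes was called for diet in 129S6, where the falls of Cyp3a11 and Cyp2b10 were larger, and Nr1i2 differed there by 0.07. How these levels relate to those of the members was not tested.

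Of 17 measured CAR and PXR targets outside the P450s, 1 fell in B6, the epoxide hydrolase Ephx1 (-0.40), and none rose. In 129S6, 2 fell, Ephx1 (-0.55, limma adjusted p = 0.027) and the glutathione transferase Gstm3 (-0.83, limma adjusted p = 0.0211). Of 10 measured targets of the aryl hydrocarbon receptor other than Cyp1a2, 3 rose in B6, Aldh3a1 (0.37), Tiparp (0.33) and Nfe2l2, and none fell, while Cyp1a2 fell. In 129S6 none of the 10 was called.

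The other P450s of families 1 to 3 were mixed. Of 15 measured in B6 liver, 5 fell, among them Cyp3a25 (-0.93, limma adjusted p = 0.00657) and Cyp2d26 (-0.39), and 1 rose, the epoxygenase Cyp2j5 (1.17). Their median was -0.00 against 0.02 over all genes. In 129S6, 1 of the 15 fell, Cyp3a16 (-0.77, limma adjusted p = 0.0463), a close relative of Cyp3a11. Between the strains, Cyp2b9, a relative of Cyp2b10, was higher in B6 on both diets (1.47 and 1.71), the opposite side to Cyp2b10 on the low-fat diet. P450s of other families had 2 higher and 4 lower of 16 in B6 and 1 higher of 16 in 129S6. The steroid hydroxylase Cyp17a1 was the one that rose in both strains (0.80 and 0.66).

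The P450s need electrons and heme. Of 8 measured electron donors 2 fell in B6, Cyb5b (-0.61) and Cyb5a (-0.51), and none was called in 129S6. A second probe set of Cyb5b, with a lower level, was not called in B6 (-0.05). Of 11 measured genes of heme synthesis and breakdown 3 fell in B6, Alas2 (-1.20), Alad (-0.67) and Urod (-0.43), and none in 129S6. Alas1, the enzyme that limits heme synthesis in hepatocytes, differed by -0.11 in B6 and was not called.

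Other drug-handling enzymes were counted too. Of 18 measured conjugating enzymes 5 fell in B6, with Inmt (-1.23), Sult1b1 (-0.76) and Sult1a1 (-0.56) among them, and none was called in 129S6. Of 14 measured carboxylesterases, oxidases and other drug enzymes 6 fell in B6, among them Ces1c (-0.95) and Ces1d (-0.91), and 2 fell in 129S6, Aox1 (-0.90, limma adjusted p = 0.027) and Ephx1. The medians of these 2 lists in B6 were -0.25 and -0.32.

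**Figure D3:**
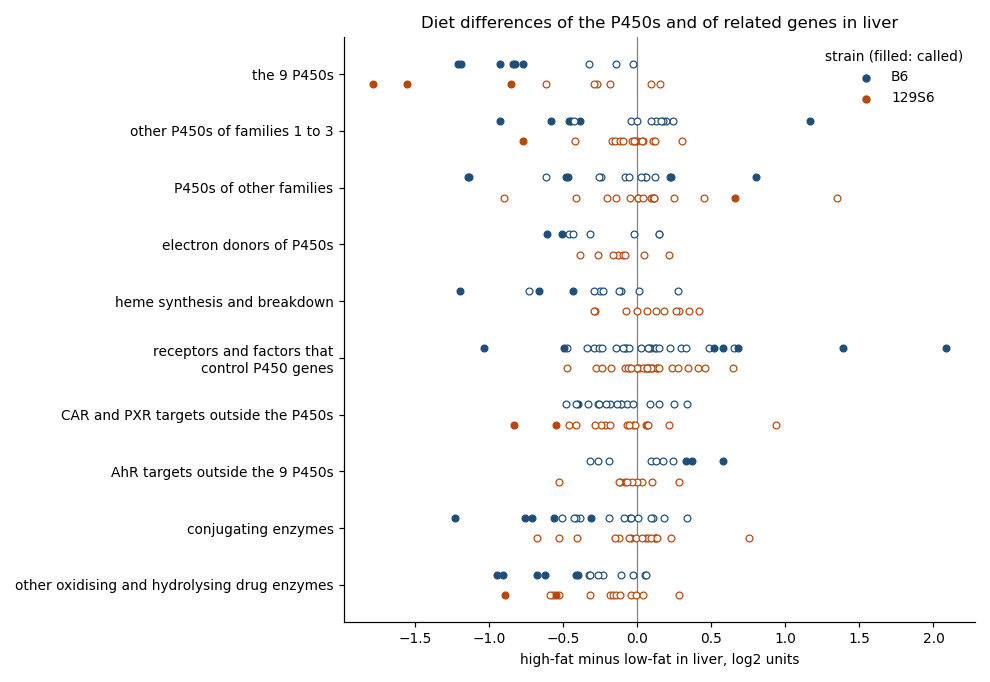
Diet differences in liver of the members and of 9 lists of related genes. Each point is 1 gene, high-fat minus low-fat in log2 units, in B6 or 129S6, and filled points were called by limma; 6 members are filled in B6 and 3 in 129S6, and the receptor list has filled points on both sides in B6 and none in 129S6.

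Markers of cell types and zones were read beside these falls. None of the 8 measured hepatocyte markers was called for diet in B6 liver. Of 9 measured pericentral markers 1 was called, Cyp1a2 itself, and of 8 periportal markers 2 were, Cyp2f2 itself and Hal (-1.25). Of 7 measured genes of male-biased hepatocyte expression, 5 fell in B6, Hsd3b5 (-3.89), Cyp7b1 (-1.14), Elovl3 (-1.12), Igf1 (-0.59) and Mup3 (-0.44). Their mean level was 9.34 to 9.96 in B6 low-fat livers and 8.52 to 8.79 in B6 high-fat livers, and none of the 7 was called for diet in 129S6. Macrophage markers had 2 of 9 higher in B6 and muscle fibre markers 3 higher and 1 lower of 12. The part of these markers, and of the Gapdh and SD differences, in the falls of the members was not tested.

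Across tissues, all 9 members were higher in liver than in muscle and in fat, averaged over the 4 groups of strain and diet. Over all genes 68% were called against muscle (24.6% higher and 43.4% lower in liver) and 57.7% against fat (28.7% higher in liver). The members' median differences were 4.17 and 3.91 against -0.11 and 0.01 over all genes. No detection calls were used, so a low value on these arrays cannot be told apart from background, and the sizes of these differences give no order of the members.

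Cyp3a11 differed by 6.33 ± 0.17 between liver and muscle and by 5.79 ± 0.17 between liver and fat. Cyp1a2 (4.46 and 4.47), Cyp2c70 (4.41 and 4.54), Cyp2f2 (4.17 and 4.51) and Cyp3a13 (3.95 and 3.91) were also far above both tissues. In muscle and fat, Cyp3a13 stayed between 3.88 and 4.71 and Cyp2c70 between 3.74 and 4.87. Neither came near its lowest liver value of 7.77 or 7.76.

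Cyp2c29, Cyp2c39 and Cyp2b10 differed by 1.52, 1.35 and 0.73 against muscle and by 1.56, 1.63 and 1.25 against fat. Cyp2b10 ranged from 6.69 to 7.76 in muscle, and its high-fat livers, from 7.07 to 7.82, lay within or just above that range. Cyp2c39 ranged from 6.79 to 8.05 in muscle, and its B6 livers, from 7.32 to 7.71, lay inside that range, while its 129S6 livers, from 9.31 to 9.78, lay above it.

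**Figure D4:**
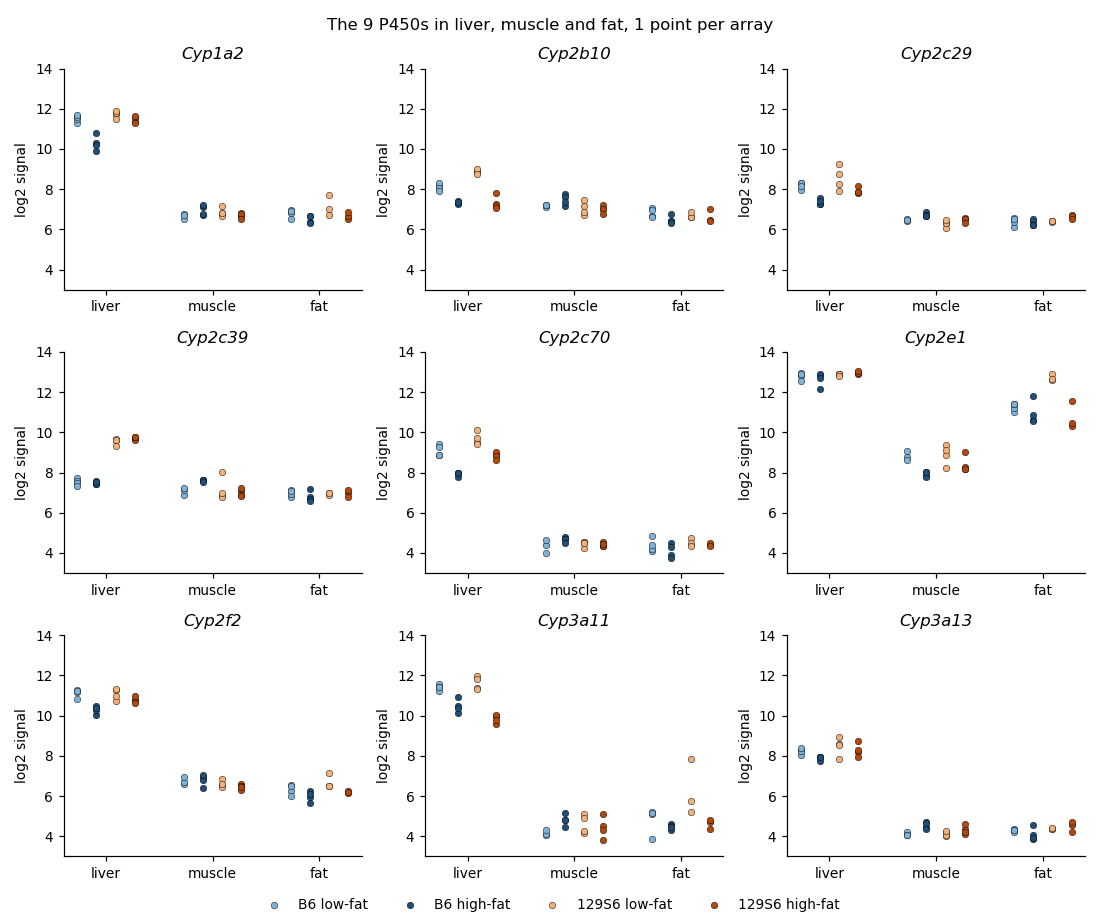
Levels of the 9 members in liver, muscle and epididymal fat. Each panel plots the log2 level of 1 member by tissue, with 1 point per array coloured by group of strain and diet; Cyp2e1 is the member whose fat arrays (10.32 to 12.88) reach the liver range, and Cyp2b10 and Cyp2c39 overlap between liver and muscle.

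Cyp2e1 was the member whose fat arrays overlapped its liver arrays. It ranged from 10.32 to 12.88 over the fat arrays (median 11.32) and from 7.77 to 9.37 over the muscle arrays (median 8.28), against 12.16 to 13.06 in liver. It differed by 1.39 ± 0.12 between liver and fat and by 4.32 ± 0.12 between liver and muscle.

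In fat, Cyp2e1 was the one member called for diet or strain. It stood at 12.88, 12.62 and 12.66 in low-fat 129S6 fat and at 11.57, 10.32 and 10.48 in high-fat 129S6 fat. In B6 it stood at 11.02, 11.20, 11.43 and 11.43 with low-fat food and at 10.62, 10.59, 11.79 and 10.86 with high-fat food. The 129S6 low-fat arrays lay above all others. The fall in 129S6 was 3.81-fold (-1.93 ± 0.33, limma adjusted p = 0.0194), where 0.751% of all genes were called and 0.303% were lower. On the low-fat diet Cyp2e1 was lower in B6 than in 129S6 (-1.45 ± 0.31, limma adjusted p = 0.0437, with 1.08% of all genes called, 0.679% lower and 0.4% higher).

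The diet difference of Cyp2e1 in B6 fat was -0.31 (95% interval -0.93 to 0.31), and 0.279% of all genes were called there, 0.0485% lower. The difference between the strains in that response was 1.62 ± 0.44 with an unadjusted p of 0.00275 in limma, and neither Cyp2e1 nor any of the 8251 genes passed after adjustment (1 member and 232 genes at an unadjusted p under 0.05). The diet call in 129S6 fat was lost with the array run as a block (-1.85, limma adjusted p = 0.123) and without low-fat replicate 9, 10 or 11 or high-fat replicate 13 (limma adjusted p up to 0.123). The strain call was lost without any 1 of its 7 arrays (limma adjusted p from 0.079 to 0.235) and with the array run as a block (-1.61, limma adjusted p = 0.341).

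The 129S6 fat groups differed in other ways too. Gapdh 3′ minus 5′ was 5.81 and 5.93 in high-fat replicates 12 and 13, 0.368 in high-fat replicate 14 and 0.074 to 0.238 in the low-fat arrays. Adipocyte markers averaged 10.31 to 10.51 on the low-fat and 9.44 to 10.11 on the high-fat diet, and macrophage markers 6.63 to 7.01 and 7.53 to 8.11. Hepatocyte markers averaged 8.17, 7.06 and 7.04 in the 129S6 low-fat arrays and 7.23, 6.44 and 7.67 in the 129S6 high-fat arrays. Albumin, the main plasma protein of the liver, stood at 11.12, 8.77 and 8.97 and at 9.64, 7.10 and 10.19 there, with overlapping groups. The mean of 3 measured epididymis markers ran from 5.77 to 8.68 on the low-fat and from 6.08 to 6.68 on the high-fat diet in 129S6, and from 5.63 to 11.70 over the B6 fat arrays. None of the 3 was called for diet in 129S6 fat. The part of these values in the Cyp2e1 result was not tested.

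Cyp3a11 in fat was highest in 129S6 low-fat replicate 9 (7.85), the array with the highest albumin level, and stood at 5.78 and 5.22 in the others of that group. The same array was high in the epididymis markers Gpx5 (10.92, against 6.15 and 5.82 in the others) and Adam7 (9.47, against 6.85 and 5.94). Their means on the high-fat diet were 5.97 and 6.30. The third, Lcn5, stood at 5.63 in this array, against 8.17 and 5.56. On the high-fat diet Cyp3a11 stood at 4.73, 4.36 and 4.83. Its difference of -1.64 was not called (limma adjusted p = 0.197) and was -0.86 without replicate 9. Between the strains on the low-fat diet Cyp3a11 differed by -1.46 (limma adjusted p = 0.272), and it was called there with the array run as a block (-3.03, limma adjusted p = 0.0144), while without 129S6 replicate 9 it differed by -0.67. The part of the albumin and epididymis values in these differences was not tested. Of the other 7 members none was called in any fat comparison, strain on the high-fat diet (0.436% of all genes called) included.

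**Figure D5:**
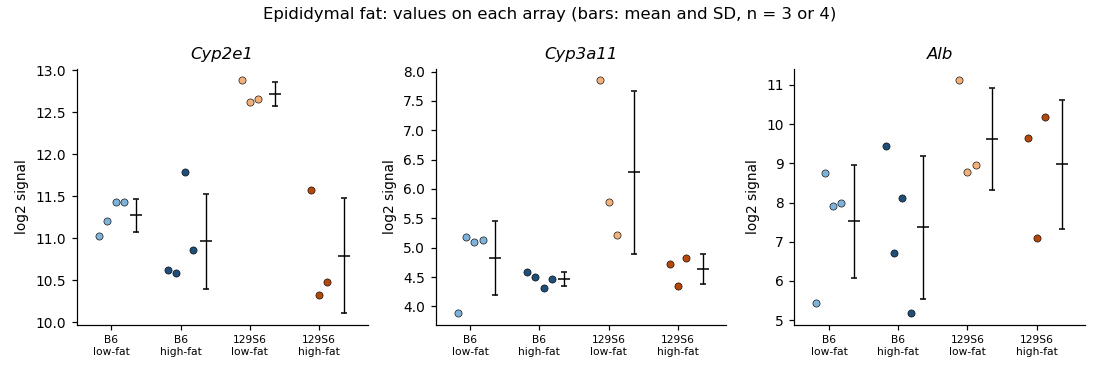
Cyp2e1, Cyp3a11 and albumin (Alb) in epididymal fat. The log2 level is plotted by group of strain and diet, with 1 point per array and a bar for the mean ± SD (n = 4 arrays in B6, 3 in 129S6); Cyp2e1 is highest in the 129S6 low-fat group (12.62 to 12.88), and 1 array of that group is high in Cyp3a11 (7.85) and Alb (11.12).

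In muscle, 2 members were called for diet in B6, where 26.8% of all genes were called (14.8% higher and 12% lower). Cyp2e1 stood at 9.06, 8.79 and 8.60 with low-fat food and at 7.81, 8.05, 7.77 and 8.03 with high-fat food, a difference of -0.90 ± 0.26 (limma adjusted p = 0.024). Cyp3a13 was higher by 0.43 ± 0.13 (limma adjusted p = 0.0308), at levels of 4.07 to 4.69. The share called was near that of all genes, and leaving out 1 array gave 0 to 2 called members (0 without low-fat replicate 13 or 14 or high-fat replicate 7).

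In 129S6 muscle no member was called for diet, as no gene was (0 members and 151 genes at an unadjusted p under 0.05 in limma), and Cyp2e1 differed by -0.49. Between the strains on the high-fat diet Cyp2b10 was higher in B6 (0.48, limma adjusted p = 0.0499), where 29.3% of all genes were called and 15.5% were higher. The groups overlapped, and this call was lost over all probe sets and in 6 of the 8 fits that leave out 1 array, all but those without B6 replicate 5 or 129S6 replicate 2. On the low-fat diet none of the members was called, against 0.279% of all genes. None depended on strain in its response to diet, against 3.19% of all genes (2.53% lower). Skeletal muscle fibre markers averaged 10.35 to 10.53 in the B6 low-fat and 9.28 to 10.11 in the B6 high-fat muscles. The mean of 6 adipocyte markers was 7.33 to 7.82 and 6.84 to 7.31 there, and Cyp2e1 was higher in fat than in muscle. The Gapdh difference was 0.35 to 0.81 and 1.19 to 3.36 in these 2 groups. The part of these markers and of the Gapdh difference in the muscle values was not tested.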

How the data were processed

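RNA of liver, muscle and epididymal fat was measured on 45 Affymetrix arrays, in 12488 probe sets. The authors deposited log2 values from RMA, per the submitters' processing notes. RMA subtracts background, equalises the arrays' distributions and summarises the probes of a set. Its version and settings, and the genome build behind the probes, were not given in the sources used here. Of the probe sets, 66 were controls, 396 carried several gene symbols and 1193 none, and none of these was tested. Of the 10833 with 1 symbol, 10817 were matched to RefSeq's gene table by Entrez gene ID and 16 kept the file's name. The brightest probe set of each gene in a tissue was kept.

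Each tissue was fitted with limma 3.58.1 in R 4.3.3, with 1 mean per group of strain and diet, two-sided tests and Benjamini-Hochberg adjustment over 8251 genes at a threshold of 0.05. Liver was compared with muscle and fat in a fit of all 45 arrays. The fits were tested on simulated data. Array runs are groups of near array numbers in the sample names, set here within each tissue, and some hold gaps. The run with most 129S6 livers held 1804 to 1807, 1809 and 1819. The B6 low-fat livers (1761 to 1764) follow directly on the last muscle array (1760). No source used here says whether a run was hybridised together. Promoter windows came from RefSeq's table for GRCm38.p6, trimmed to the 250 bases before the start, and were aligned with Biopython 1.88 in Python 3.11.15. Figures were drawn with matplotlib 3.10.9.

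The members, the gene lists and the alternatives were chosen with earlier results of these data known. By the rule for named genes, all 9 members are named in every comparison, and of each list, per liver comparison, up to 3 called genes by smallest adjusted p. For each member whose liver group means span over 1 log2 unit, the 3 genes of nearest pattern are named. Further receptors, Alas1, Nr1i2 and the marker genes were named outside this rule, after their values were seen. Within every tissue the alternatives were every probe set with 1 symbol, renewed quantile normalization, fits of only 2 groups and leaving out each array. In liver alone, probe sets made for a single gene, a filter that drops the dimmest genes (1 in 3) and 1 array run alone were used. Also in liver alone, the Gapdh difference or the SD of an array was a term. Arrays whose Gapdh difference was above 3 were dropped in liver alone too. Array run as a block was used in liver and fat. Between tissues, every probe set, a variance prior with intensity trend and robust fit, and a replicate block were used. That prior was also used in liver.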

Additional observations from a re-analysis of the deposited data

Results flagged for a closer look

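Of 81 sets of 4 arrays, each a member in a group, 7 had an array far from the other 3 by Dixon's test. Chance alone gives about 1 in 20, or 4.05 of 81. In liver these were Cyp2c39 in 129S6 low-fat replicate 6 (9.31, the next at 9.61), Cyp2c70 in B6 high-fat replicate 15 (7.76, the next at 7.97) and Cyp3a13 in the same array (7.77, the next at 7.94). In muscle they were Cyp2c39 in 129S6 low-fat replicate 9 (8.05, the next at 6.97), Cyp2c70 in 129S6 low-fat replicate 10 (4.23, the next at 4.52) and Cyp2e1 in 129S6 high-fat replicate 1 (9.02, the next at 8.28). In fat it was Cyp3a11 in B6 low-fat replicate 1 (3.89, the next at 5.09).

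For 3 members a strain dependence of the diet difference in liver was called by its own test in limma. Array run cannot be told apart from it. High-fat minus low-fat in B6, less the same in 129S6, was -0.94 for Cyp1a2, 0.78 for Cyp2b10 and 0.86 for Cyp3a11.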

How the results depend on the processing

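Over 70 differences of a member, 982 values were recomputed. Of these, 879 kept direction and side of the threshold, 69 kept the direction and lost the call, 15 kept it and gained one, and 19 changed sign, all of them in differences that were not called. Fits over all or only single-gene probe sets, without the dimmest genes, with the variance prior or of 2 groups alone return the same difference by design. In those fits the call could change but the direction could not. The sign changed for Cyp2c39 with diet in B6 (0.020 after quantile normalization and 0.021 with the Gapdh covariate), for Cyp3a13 with diet in B6 (0.24 with the SD covariate) and in 129S6 (0.060 within 1 array run (low-fat replicates 5 and 6 and all high-fat arrays) and 0.060 with the run as a block). For strain on the low-fat diet it changed for Cyp2f2 (-0.15 after quantile normalization, -0.058 without arrays of high Gapdh difference). For strain on the high-fat diet it changed for Cyp2b10 (-0.022 after quantile normalization, -0.00593 with the SD covariate). For the difference between the strains it changed for Cyp2c29 (0.13) and Cyp3a13 (0.46) with the SD covariate. The cause was not tested.

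Leaving out 1 array gave -0.10 to 0.033 for Cyp2c39 and -0.23 to 0.018 for Cyp2e1 with diet in B6 liver, -0.058 to 0.16 for Cyp2f2 and -0.079 to 0.17 for Cyp2b10 between the strains on the low-fat and the high-fat diet, and -0.29 to 0.066 for Cyp3a13 in the difference between the strains. The count of members called for the difference between the strains in liver was 1 with the SD covariate and 1 to 3 without 1 array. With diet in B6 muscle it was 1 after quantile normalization, 4 in the fit of the 2 groups alone (1966 of 8251 genes called) and 0 to 2 without 1 array. For strain on the high-fat diet in muscle it was 0 over all probe sets, 2 in the fit of the 2 groups alone (2844 of 8251 genes called) and 0 to 1 without 1 array. With diet in 129S6 fat it was 0 with the run as a block and 0 to 1 without 1 array, and for strain on the low-fat diet in fat 0 over all probe sets and 0 to 0 without 1 array. Where 1 group keeps few arrays, its spread is taken from the others. For the other fits the share of all genes called is not given here. The counts of members called are therefore not read as a result about the members.

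With the replicate block on sample numbers shared between tissues, all 9 members were still called higher in liver than in muscle and in fat. Of 12 pairs of arrays from different tissues with the same strain, diet and number 2 had a correlation over 0.1, so the numbers were not taken to pair the samples, and within a tissue no number is shared. The run as a block could not be fitted for diet in B6 liver, for strain on the low-fat diet or for the difference between the strains, and 1 run alone was possible only for diet in 129S6. No call of signal over background was used, which limits what differences at low levels, as of Cyp3a13 in muscle, can show.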

Other observations

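On the low-fat diet, several lists of related genes had genes that were higher in B6 liver than in 129S6 liver, while the 3 called of the 9 members were lower. Among all genes tested, 10% were higher and 3.83% lower in B6 in this comparison, so higher genes were the more common in general. Of 15 other P450s of families 1 to 3, Cyp2b9 (1.47) and Cyp2d26 (0.30) were higher and Cyp2j5 (-1.16) was lower, and of 16 P450s of other families Cyp8b1 (0.57) was higher and Cyp7b1 (-1.19) lower. Of 14 measured carboxylesterases, oxidases and other drug enzymes, 6 were higher in B6 than in 129S6 and none was lower, among them Ces1c (2.04), Xdh (1.54) and Ces1g (1.54). Of 18 conjugating enzymes 5 were higher and none was lower, among them the methyltransferases Nnmt (2.04) and Inmt (1.43). Of 8 electron donors 3 were higher, Cyb5r3 (1.12), Cyb5b (0.72) and Pgrmc2 (0.63). Of 29 receptors and factors 6 were lower in B6 and 1 was higher, with Hnf4a (-1.77) and Rxra (-0.68) among the lower. Hnf4a ranged from 5.96 to 6.27 in B6 and from 5.99 to 8.79 in 129S6, so its groups overlapped. A second probe set of Rxra was not called (-0.56, limma adjusted p over all probe sets = 0.0761). The median of the 9 members was -0.25 against -0.02 over all genes. The B6 low-fat arrays formed a run of their own, so that strain and run cannot be told apart here.

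On the high-fat diet, Ces1c (1.62), Ces1g (1.45) and Xdh (0.94) were again higher in B6, among 4 of the 14 drug enzymes. Among all genes tested, 3.03% were higher and 2.13% lower in B6 here. No electron donor was called. Nr1i3 was lower in B6 (-1.04, limma adjusted p = 0.000757), with Foxa3 (-0.72) among 3 of 29 receptors and factors that were lower, and Alad (-1.18) and Alas2 (-0.72) were lower among 11 heme genes. On the high-fat diet the B6 livers were all of 1 array run and the 129S6 livers all of another. Both strain comparisons use livers that also enter the diet comparisons.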
